A study of Mus musculus with 9 samples.

Results

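Distinct read sequences annotated as ribosomal RNA (rRNA) were examined in small RNA libraries from mouse serum, before and after removal of 5′ tRNA-half fragments. The members are all rows whose annotated class is rRNA, each one distinct sequence of one library with its raw count. They numbered 4040 of the 74900 rows listed for small RNAs other than miRNAs, summed over 9 libraries. Because a row carries no sequence or position and its number only ranks it within its own library, a sequence present in several libraries was counted in each of them. No row of one library could be matched to a row of another.

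Serum came from healthy 129/SVj mice of both sexes, aged 2 to 9 months. The labels name 3 serum pools (A, B and C), whereas the methods describe aliquots of serum pooled from 3 mice, in which case the spread between replicates is technical only. RNA of each pool was divided over an undepleted control, a fraction depleted with biotinylated DNA probes and streptavidin beads, and a fraction depleted with such probes, RNase H (which cuts RNA paired with DNA) and DNase I, giving 3 libraries per group. The probes were designed against fragments of glutamine, glycine, valine and histidine tRNA and none against rRNA. Annotated counts per library ranged from 3904095 to 4920457 in control, from 2796718 to 3538246 in beads-depleted and from 47252 to 160581 in RNase H-depleted libraries.

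rRNA forms the structural and catalytic core of the ribosome and is the most abundant RNA of most cells. Most cytoplasmic rRNAs are cut from one long precursor made by RNA polymerase I, and mitochondria make their own pair of rRNAs. Serum is prepared free of cells, so rRNA reads in it are usually taken to be fragments of RNA that left cells. Small RNA libraries hold only the short ones. The origin of the reads counted here was not tested. Raw counts are not amounts in serum, since libraries were mixed in equal molar amounts before sequencing. RNase H-depleted libraries held few annotated counts but not few reads: by their rank numbers they held at least 2395272 to 4772053 reads, against at least 5828128 to 7351545 in control libraries and at least 4603338 to 6303932 after depletion with beads. These are lowest possible numbers and do not order the groups. The paper reports more total reads on average for RNase H-depleted than for control libraries.

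To show what a perfect match to annotated rRNA can involve, the rRNA genes of GENCODE M21 (GRCm38) were listed. This annotation is not the one the authors used (Ensembl v84 and UCSC), and no read was placed on it. It holds 356 rRNA genes with 308 distinct transcript sequences, so that some genes share a sequence. The distinct read sequences counted below can differ by a base, by a start or by a length, and their number is not a number of rRNA genes.

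First, the number of distinct rRNA sequences was compared. Beads-depleted libraries held 2.75 times as many as control libraries, and those of RNase H-depleted libraries overlapped with control. The control libraries held 288, 304 and 263 in pools A, B and C, the beads-depleted libraries 782, 736 and 829, and the RNase H-depleted libraries 351, 232 and 255. All beads-depleted libraries lay above all others, while RNase H-depleted libraries lay on both sides of the controls. The means were 285.0 ± 20.7 for control, 782.3 ± 46.5 for beads and 279.3 ± 63.1 for RNase H (SD, n = 3). For beads against control the exact permutation p was 0.1, the smallest possible (adjusted p = 0.136), and for RNase H against control it was 0.9. Without pool B the RNase H mean was 27.5 sequences above the control mean instead of 5.67 below it, and without pool A it was lower, with a difference of -40.0.

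The summed rRNA counts followed a similar pattern. They were 2834, 2669 and 1724 in control, 14196, 10997 and 15213 in beads-depleted, and 3778, 1078 and 1525 in RNase H-depleted pools A, B and C. After depletion with beads every library held more rRNA counts than any other library, with a mean of 13469 ± 2200.1 against 2409 ± 599 in control libraries (SD, n = 3), or 5.59 times as many (exact permutation p = 0.1). RNase H-depleted libraries had a mean of 2127 ± 1447 (SD, n = 3), 0.883 times the control mean, and overlapped with the controls (exact permutation p = 0.8). RNase H rRNA counts were above those of the same pool's control in A and below them in B and C. Without pool B the RNase H mean was 372.5 counts above the control mean, and without pool A it was lower, with a difference of -895.0.

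**Figure D1:**
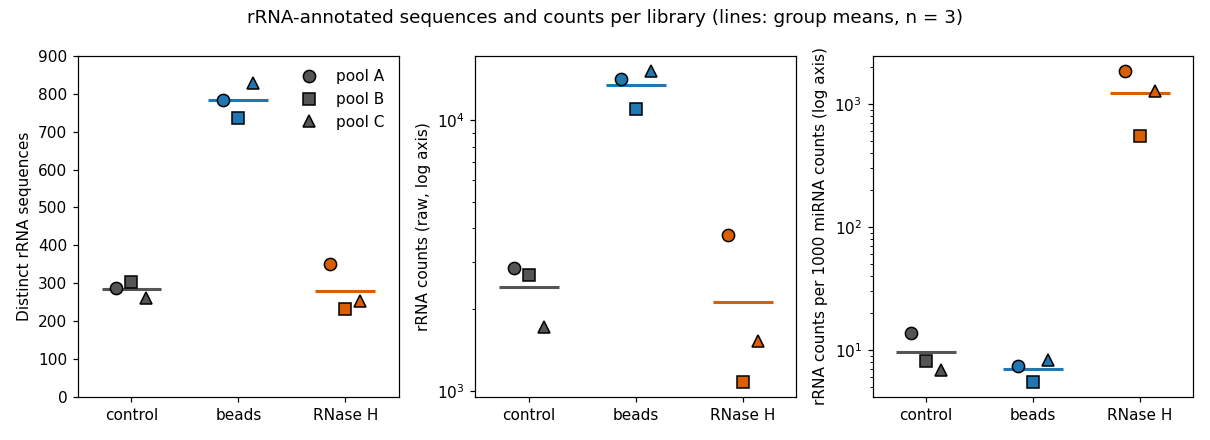
Distinct rRNA sequences, raw rRNA counts (log axis) and rRNA counts per 1000 miRNA counts (log axis) of each library by group. Points are serum pools and lines are group means. Beads-depleted libraries lie above all others in the first pair of panels, and RNase H-depleted libraries, at 545.3 to 1852 rRNA counts per 1000 miRNA counts, lie above all others in the last.

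Next, rRNA was set against the other small RNAs of the same library, which removes differences in how deeply a library was sequenced. Relative to miRNAs, which repress messenger RNAs, rRNA overlapped between control and beads-depleted libraries and was higher in all RNase H-depleted ones. Per 1000 miRNA counts there were 13.8, 8.07 and 6.93 rRNA counts in control pools A, B and C, and 7.37, 5.51 and 8.35 in the beads-depleted ones. The ratio was lower with beads in pools A and B and higher in pool C, and the groups overlapped (exact permutation p = 0.5). In RNase H-depleted libraries the values were 1852, 545.3 and 1272, with a mean of 1223 ± 655 against 9.61 ± 3.69 in control libraries (SD, n = 3). These were 134.1, 67.6 and 183.5 times the control values of the same pools (exact permutation p = 0.1). RNase H-depleted libraries held only 1199 to 2040 miRNA counts, so the ratio rests on a small denominator.

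As a share of all annotated counts, rRNA made up 0.0442% to 0.0680% of control, 0.393% to 0.430% of beads-depleted and 1.92% to 2.35% of RNase H-depleted libraries. This order depends on the total used. Rank numbers that are not listed belong to sequences of other kinds, and adding the lowest count each can have gave a larger total. Of this total rRNA was a lower share after RNase H (mean 0.0599%) than after beads (mean 0.240%). The mean in control libraries was 0.0375%. This total is a lower bound, and the paper reports more total reads on average for RNase H-depleted than for control libraries. How RNase H and control compare as a share of all reads was therefore not determined.

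The change in rRNA was set beside that of other classes that no probe was designed against. The paper reports, however, that some miRNA sequences overlap fully with a probe. It describes no such search for rRNA, piRNA, snRNA or snoRNA. In beads-depleted libraries rRNA counts were 5.01, 4.12 and 8.82 times the control counts of pools A, B and C. In the same pools these ratios were 11.6, 7.003 and 11.1 for piRNA-annotated reads (a class of small RNAs bound by Piwi proteins), 12.2, 7.58 and 12.3 for snRNA (components of the spliceosome), 10.2, 6.53 and 8.52 for snoRNA (guides of rRNA modification) and 9.39, 6.04 and 7.33 for miRNA. The rRNA ratio was thus the lowest of the 5 in pools A and B, and it lay above those of snoRNA and miRNA in pool C.

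Counts of rRNA per 1000 piRNA counts were 803.3, 507.2 and 423.0 in control and 345.4, 298.4 and 335.6 in beads-depleted pools. The groups did not overlap (exact permutation p = 0.1, adjusted p = 0.136). The difference of the means was -251.4, and -148.1 without pool A, whose control library was the highest. Per count of snRNA and snoRNA together there were 3.01, 1.81 and 1.54 rRNA counts in control and 1.38, 1.08 and 1.39 in beads-depleted libraries, again without overlap (exact permutation p = 0.1). Here the difference was -0.842, and -0.446 without pool A.

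After RNase H the classes differed more from each other. rRNA counts were 1.33, 0.404 and 0.885 times those of control pools A, B and C, while piRNA-annotated counts were 29.6, 6.37 and 14.6 times, snRNA counts 0.685, 0.141 and 0.232 times, and snoRNA counts 0.202, 0.0559 and 0.0495 times the control counts. The ratio of rRNA lay between that of piRNA and those of snRNA and snoRNA in all 3 pools. There were thus 36.2, 32.1 and 25.7 rRNA counts per 1000 piRNA counts, all below every control and beads-depleted library (exact permutation p = 0.1). Per count of snRNA and snoRNA together there were 10.5, 8.29 and 12.1 rRNA counts, all above every other library (exact permutation p = 0.1), although snRNA and snoRNA together had only 126 to 359 counts in these libraries.

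**Figure D2:**
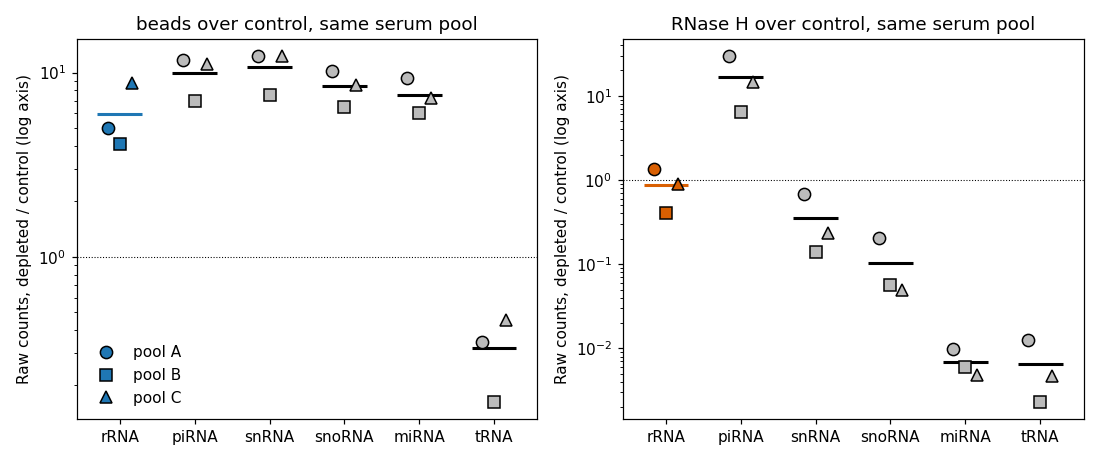
Raw counts of each RNA class in beads-depleted (left) and RNase H-depleted (right) libraries over those of the control library of the same pool, on log axes. Points are pools, lines are means of the ratios, and the dotted line marks a ratio of 1. rRNA lay between 4.12 and 8.82 with beads and between 0.404 and 1.33 with RNase H, where piRNA lay above it and the other classes below it in every pool.

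The rank of the highest rRNA sequence among all distinct sequences of its library was examined next. It was rank 257, 372 and 368 in control pools A, B and C, and 124, 296 and 106 in the beads-depleted ones. In RNase H-depleted libraries it was rank 1171, 2795 and 2043. These lists differ in length, with highest rank numbers of 58583 to 73218 in control, 192291 to 197581 in beads-depleted and 234462 to 362898 in RNase H-depleted libraries. As a percent of the highest rank number, the position was 0.439%, 0.508% and 0.610% in control pools A, B and C and 0.323%, 1.19% and 0.801% in the RNase H-depleted ones, so that these groups overlapped on that scale. With beads it was 0.0628%, 0.154% and 0.0539%, nearer to the top than in every other library. No RNase H-depleted library had an rRNA sequence among its first 1000 ranks, whereas control libraries had 2 to 4 and beads-depleted libraries 4 or 5. The total number of listed sequences at the top, summed over the classes, was also lower after RNase H. The highest piRNA sequence, however, stood at rank 53, 63 and 35 in RNase H-depleted pools A, B and C. In control pools it stood at rank 306, 336 and 330. The highest sequences of tRNA, and of snRNA and snoRNA together, were further from the top after RNase H than in every control library. Among the first 10000 ranks, 14 to 17 of 209 to 299 listed sequences were rRNA after RNase H. In control libraries 53 to 58 of 1886 to 1908 were rRNA, and with beads 100 to 110 of 1948 to 2073. Above the highest rRNA sequence of the RNase H-depleted libraries stood 43 to 55 sequences of the listed classes and 1127 to 2739 that are not in these rows. In control libraries these numbers were 91 to 125 and 165 to 246. Sequences that are not in these rows can be miRNAs or lack one of these annotations. After RNase H only few of them can be miRNAs, since each had at least the count of the highest rRNA sequence (83 to 460). All miRNA counts together were 1199 to 2040 in those libraries.

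In every library a few sequences held a large part of the rRNA counts. The highest sequence had 829, 648 and 512 counts in control pools A, B and C, which is 29.3% (Wilson 95% interval 27.6% to 31.0%), 24.3% (22.7% to 25.9%) and 29.7% (27.6% to 31.9%) of the rRNA counts. The second had 571, 430 and 182 counts, and the next 290, 242 and 107. It took only 3, 4 and 4 sequences to reach 50% of the rRNA counts, and 74, 91 and 102 to reach 90%. At the other end, sequences seen once were 55.5% ± 2.09 of the distinct sequences (SD, n = 3) and held 6.84% ± 1.68 of the counts.

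Beads-depleted libraries were uneven among themselves. The highest sequence had 4643 and 5646 counts in pools A and C, which is 32.7% (31.9% to 33.5%) and 37.1% (36.3% to 37.9%) of the rRNA counts, but 1617 counts or 14.7% (14.1% to 15.4%) in pool B. It stood 4.28 and 7.25 times above the second sequence in pools A and C, and 1.22 times in pool B. The second sequence and the one after it had 1084 and 637 counts in pool A, 1321 and 760 in pool B, and 779 and 470 in pool C. Whether the highest sequence is the same in all pools cannot be told. The other rRNA sequences together held 9553, 9380 and 9567 counts, a mean of 9500.0 ± 104 (SD, n = 3). The SD was thus 1.096% of the mean without the highest sequence and 16.3% with it. In control libraries the same sums were 2005, 2021 and 1212, with an SD of 26.5% of the mean. The share of the highest sequence had a mean of 28.2% ± 11.9 against 27.7% ± 3.01 in control libraries (SD, n = 3; exact permutation p = 1.0). Without pool B the difference was 5.43 percentage points, and without pools A and C it was -1.08 and -3.06.

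In RNase H-depleted libraries the highest sequence held a smaller share of the rRNA counts. The highest had 460, 83 and 127 counts in pools A, B and C, or 12.2% (11.2% to 13.3%), 7.70% (6.25% to 9.45%) and 8.33% (7.04% to 9.82%) of the rRNA counts. It stood 1.27, 1.28 and 1.21 times above the second sequence, against 1.45, 1.51 and 2.81 times in control pools A, B and C. The beads-depleted library of pool B, at 1.22, was as low. After RNase H the share of the highest sequence was below that of every control and beads-depleted library, with a mean of 9.40% ± 2.42 (SD, n = 3) and a difference from control of -18.3 percentage points (exact permutation p = 0.1). To reach 50% of the rRNA counts took 7, 16 and 13 sequences.

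**Figure D3:**
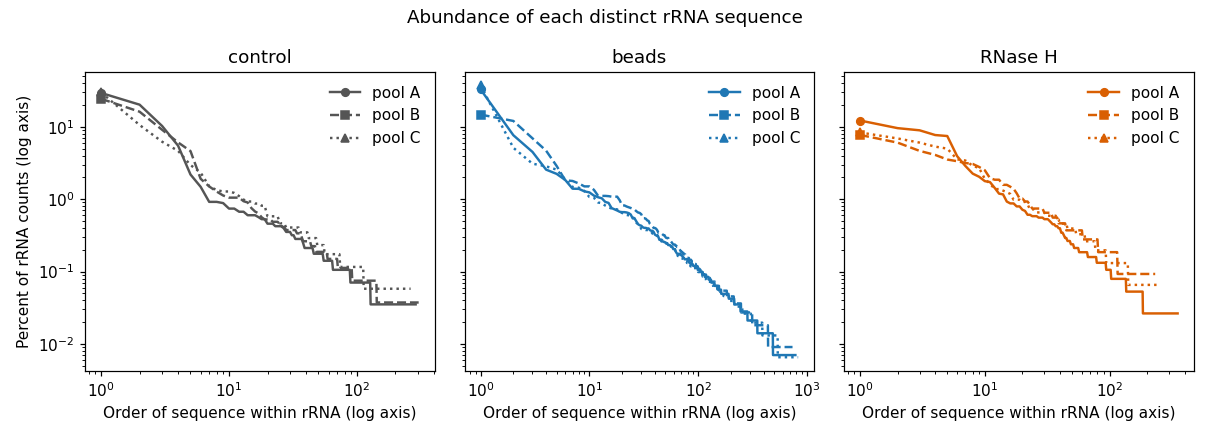
Share of the rRNA counts held by each distinct rRNA sequence, ordered from high to low within its library (both axes log), for control, beads-depleted and RNase H-depleted libraries. Lines are pools and the marker shows the highest sequence, which starts at 24.3% to 29.7% in control, at 14.7% to 37.1% with beads and at 7.70% to 12.2% with RNase H.

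The effective number of sequences tells how many equally abundant sequences would be as concentrated as the observed ones. It was 7.09, 9.93 and 9.22 in control pools A, B and C, 8.44, 21.1 and 6.89 in beads-depleted and 20.5, 45.2 and 36.7 in RNase H-depleted libraries. RNase H-depleted libraries did not overlap with the controls and were 3.90 times as high in the mean (exact permutation p = 0.1). Beads-depleted libraries overlapped with the controls (exact permutation p = 0.9), and only that of pool B lay above all of them. The exponential of the Shannon entropy at equal depth, another index that gives less weight to the highest sequence, had means of 47.0 with beads and 29.0 in control libraries, and by it the groups did not overlap (exact permutation p = 0.1). With the highest sequence of each library left out, an alternative chosen after these values were seen, the numbers were 9.01, 13.7 and 24.2 in control, 39.5, 28.2 and 53.6 in beads-depleted, and 22.8, 52.4 and 41.2 after RNase H. Beads-depleted libraries then all lay above the controls (exact permutation p = 0.1), and RNase H-depleted libraries overlapped with them (exact permutation p = 0.2).

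The 10 highest sequences held 72.2%, 67.0% and 61.8% of the rRNA counts in control pools A, B and C. They held 56.8%, 49.4% and 57.9% in beads-depleted libraries, below every control (exact permutation p = 0.1). In RNase H-depleted libraries the values were 58.6%, 40.8% and 46.0%, also below every control (exact permutation p = 0.1). The share of sequences seen once was lower than in controls after both treatments, at 37.9% ± 2.70 with beads and 47.7% ± 2.67 with RNase H (SD, n = 3; exact permutation p = 0.1 for each). This share can depend on how deeply a library is sequenced, and rRNA depth differed between the groups.

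**Figure D4:**
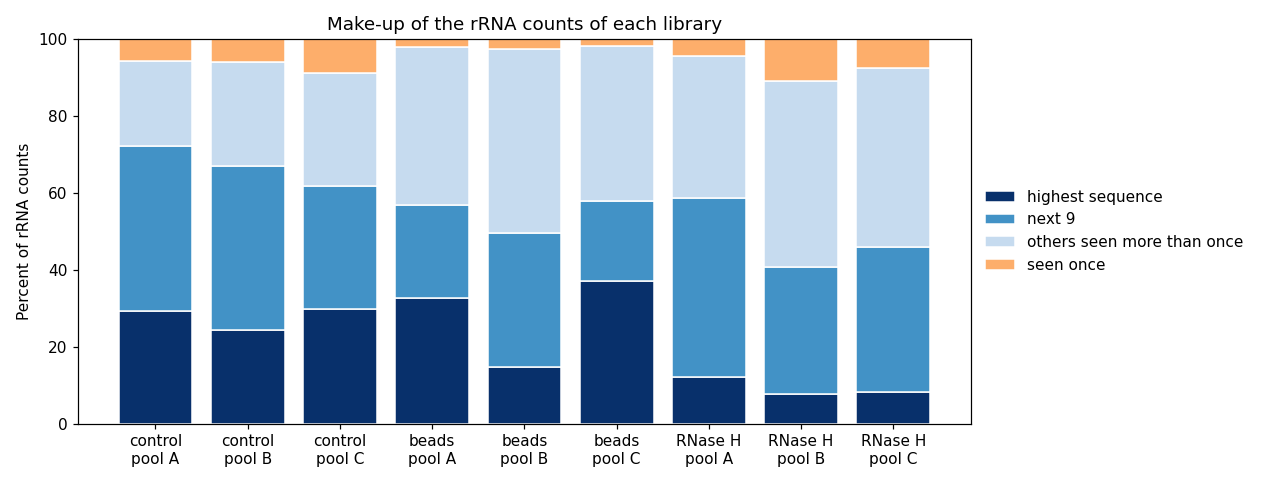
Percent of the rRNA counts of each library held by the highest sequence, the next 9, the others seen more than once, and those seen once. The beads-depleted libraries of pools A and C have the highest bottom segments (32.7% and 37.1%), and those of the RNase H-depleted libraries lie between 7.70% and 12.2%.

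To compare libraries at the same depth, the number of distinct sequences expected among 1078 rRNA counts was computed. It was 164.7, 182.1 and 199.8 in control pools A, B and C, and 223.2, 231.4 and 225.7 in beads-depleted libraries. The number was higher with beads in each pool, and the groups did not overlap. The means were 182.2 ± 17.6 and 226.8 ± 4.22 (SD, n = 3), a ratio of 1.24 (exact permutation p = 0.1, adjusted p = 0.136), against 2.75 without equal depth. RNase H-depleted libraries had an expected 186.2, 232.0 and 216.7, with a mean of 211.6 ± 23.3 (SD, n = 3). Each lay above the control of its own pool, but the groups overlapped (exact permutation p = 0.2). The difference was 29.4, and 19.2 without pool B. With the highest sequence of each library left out, and the equal depth thus reset to 995 counts, it was 2.88 (exact permutation p = 1.0).

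Evenness, which is 1 when all sequences are equally abundant, was also taken at this depth. It was 0.599, 0.655 and 0.673 in control pools A, B and C, 0.684, 0.763 and 0.665 in beads-depleted, and 0.741, 0.827 and 0.811 in RNase H-depleted libraries. RNase H-depleted libraries lay above all controls (means 0.793 ± 0.0454 and 0.642 ± 0.0385, SD, n = 3; exact permutation p = 0.1). Beads-depleted libraries lay above the control of the same pool in A and B and slightly below it in C, and the groups overlapped (exact permutation p = 0.2). With the highest sequence of each library left out, and the equal depth thus reset to 995 counts, beads-depleted libraries did not overlap with the controls (exact permutation p = 0.1). RNase H-depleted libraries then did (exact permutation p = 0.2).

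**Figure D5:**
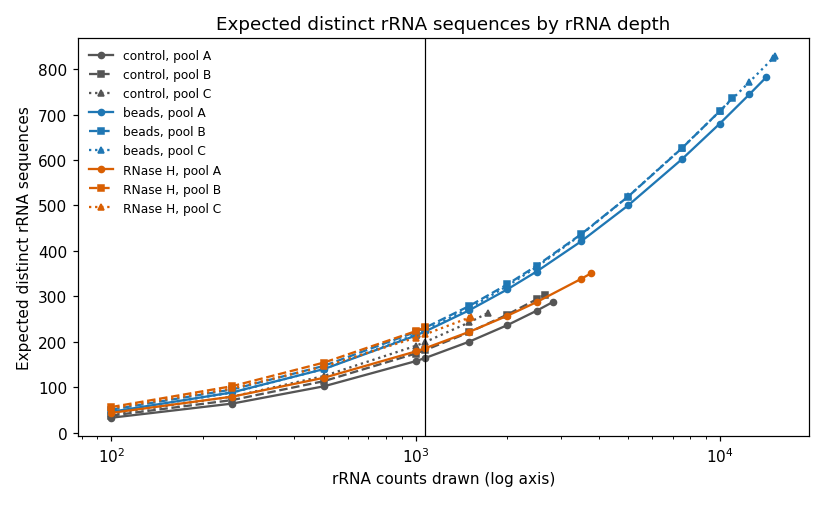
Number of distinct rRNA sequences expected when a given number of rRNA counts is drawn from each library (log axis), up to its full depth. The vertical line marks 1078 counts, where control libraries lie at 164.7 to 199.8, beads-depleted at 223.2 to 231.4 and RNase H-depleted at 186.2 to 232.0 sequences. The curves of all libraries still rise at their full depth.

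Finally, rRNA was compared with other classes of the same library at the same number of counts. This number was equal within a library but not between groups. For tRNA and piRNA it was 1724 to 2834 in control, 10997 to 15213 with beads and 1078 to 3778 after RNase H. The ratios can depend on this depth. Depth and treatment therefore cannot be told apart where the ratios differ between groups. In control libraries piRNA-annotated reads gave 2.35 to 3.22 times as many distinct sequences as rRNA, and snRNA and snoRNA together 2.01 to 2.27 times as many. tRNA-annotated reads gave fewer, 0.404 to 0.464 times as many. These directions were seen in all 3 pools (exact sign-exchange permutation p = 0.25, the smallest possible). The test used the difference in expected distinct sequences within each library, not the ratio. After depletion with beads tRNA gave 1.04 to 1.23 times and piRNA 3.65 to 4.06 times as many distinct sequences as rRNA, in each case more in all 3 pools (p = 0.25 in the same exact test). For snRNA and snoRNA together it was 1.91 to 2.13 times, at depths of 10214 to 10970 counts, against 942 to 1474 counts in control. After RNase H the ratio of piRNA to rRNA was 1.20, 0.866 and 0.908 in pools A, B and C, so that neither class was the more varied one in all pools (exact sign-exchange permutation p = 1.0). The ratio of tRNA to rRNA was 0.994, 0.921 and 0.810, below 1 in all 3 pools (p = 0.25 in the same exact test). That of snRNA and snoRNA together was 1.56, 0.890 and 1.29, at depths of only 359, 130 and 126 counts (exact sign-exchange permutation p = 0.5). It was thus not above 1 in every pool, as it was in control and beads-depleted libraries. At full depth, which differed between libraries and classes, rRNA sequences made up 4.12% to 4.55% of the distinct sequences listed in control libraries. The share was 5.13% to 5.33% in beads-depleted and 8.01% to 8.44% in RNase H-depleted libraries, 3 ranges without overlap (exact permutation p = 0.1 for each of the 3 comparisons). Distinct tRNA sequences numbered 4577 to 5070 in control and 772 to 1284 after RNase H. Distinct rRNA sequences had means of 285.0 and 279.3.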

How the data were processed

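Per the study's methods, the authors removed adapters (Cutadapt v1.8.1), filtered reads on length and quality, mapped them to GRCm38 without mismatches (Bowtie v1.1.2) and took the class of a read from the annotation at its position. The deposited values are raw counts per distinct sequence or miRNA, and another column, the rank number of each sequence, whose order was checked in all 9 libraries. Size selection kept short fragments, so intact rRNA is not measured, and reads with a modified or misread base are left out.

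Values at equal depth were computed from the hypergeometric distribution, at 1078 rRNA counts (the smallest library). The formulas were checked against 200 random draws from the rRNA counts of each library, at a slightly lower depth. Evenness is the expected Shannon entropy over the natural logarithm of the expected number of distinct sequences. The effective number is the inverse of the chance that 2 counts drawn without replacement are the same sequence. Groups were compared in 15 measures by exact permutation of libraries between groups, two-sided, on the mean difference (20 assignments, Python 3.11.15, SciPy 1.17.1), with Benjamini-Hochberg adjustment over all 45 comparisons. Its smallest p is 0.1, so no comparison could pass 0.05, and "higher" or "lower" describes values. Every p of 0.1 had an adjusted p of 0.136. Rows cannot be matched between libraries, so no model across features could be fitted. For each library the 3 highest rRNA sequences are described. The measures were chosen with earlier results of these data known.

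The labels pair libraries by serum pool. Deviations of miRNA levels from the group mean correlated between libraries of one pool with a mean r of 0.079 (beads and control) and -0.018 (RNase H and control). Within each group the miRNA counts of any 2 libraries differed by more than sampling noise (lowest chi-square per degree of freedom 1.37). Leaving out the highest sequence of each library, and an equal depth set by only the groups compared, were added after the data had been seen. Where sequences were left out, the equal depth was reset to the smallest remaining sum of rRNA counts. Wilson 95% intervals cover counting error only: PCR copies of a molecule cannot be recognised here.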

Additional observations from a re-analysis of the deposited data

Results flagged for a closer look

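The number of rRNA counts per count of snRNA and snoRNA lay on opposite sides of the control with the 2 protocols, in every pool. With beads it was below the control of the same pool in all 3 pools (mean difference -0.842), and with RNase H above it in all 3 (mean difference 8.19). Both differences use the same control libraries, and the difference between the effects was not tested. After RNase H, snRNA and snoRNA together had only 126 to 359 counts per library. Mean raw counts after RNase H were 0.314 times the control mean for snRNA, 0.0927 times for snoRNA and 0.883 times for rRNA. Compared directly, RNase H-depleted libraries lay above beads-depleted libraries in all 3 pools, with means of 10.3 and 1.28 (exact permutation p = 0.1, the smallest possible).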

How the results depend on the processing

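No comparison could pass 0.05 under any setting, so settings were compared by direction. Of 45 comparisons, 35 kept the direction of their difference in all alternatives. With the pool taken as replicate block, the mean ratio within pools for distinct sequences was 2.76 for beads against control (exact sign-exchange permutation p = 0.25). The mean difference of 497.3 is the same with and without the block by construction, as is every direction, so this is no check of stability. The mean ratio within pools crossed 1 for the share of the highest sequence, beads against control (0.991, against a ratio of means of 1.02). For RNase H against control, distinct sequences turned higher with at least 2 counts (difference 19.3) or at least 5 counts (13.3) and ranged from -40.0 to 27.5 without one pool. rRNA counts turned higher without the highest sequence (157.7; -895.0 to 372.5 without one pool), as did mean counts per sequence (0.336; -2.35 to 0.174). For RNase H against beads, the rRNA percent turned lower with the lowest total the ranks allow (-0.180), expected distinct sequences turned higher at a depth of 269 counts (2.09), and evenness (-0.0159) and the effective number (-1.65) turned lower without the highest sequence. The share of the 10 highest turned higher with at least 5 counts (1.37) or without the highest sequence (7.10). For beads against control, the share of the highest sequence turned lower with at least 2 counts, also when sequences seen once were left out of the total (-1.02 for both), with at least 5 counts (-2.35), on the log2 scale (-0.080) and without the highest sequence (-10.4), and ranged from -3.06 to 5.43 without one pool. The effective number ranged from -0.485 to 6.26. The causes were not tested. At full depth, 3 counts were 0.0197% to 0.0273% of the rRNA counts of beads-depleted, 0.106% to 0.174% of control and 0.0794% to 0.278% of RNase H-depleted libraries.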
